A study of Mus musculus with 5 samples.

Results

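Kinesins are microtubule motor proteins, and the genes described here are the mouse kinesin genes whose symbols begin with Kif or Kifc followed by a number. In the RefSeq annotation of GRCm38.p6, the assembly of mm10, 42 of 21779 protein-coding genes met this rule. ZFP541 is a germ cell protein with zinc fingers, and its binding at these genes was measured by ChIP-seq, which sequences the DNA that an antibody pulls down from fixed chromatin. Spermatocytes in the pachytene and diplotene stages of meiosis were enriched by STA-PUT sedimentation from the testes of adult C57BL/6 mice. The Zfp541-/- group (knockout) is 1 ChIP library made with the ZFP541 antibody, and the wild-type group is 2 ChIP libraries made with the same antibody. The 5 samples also include 2 wild-type input libraries, which were not analysed here. The antibody was raised against the first part of the protein, and nothing in the labels says how the allele was made or whether the wild-type libraries came from separate animals. A peak list does not measure expression, so the purity of the cells was not checked.

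Most kinesins use ATP to step along microtubules. One group acts in cell division, where its members slide spindle microtubules apart, move and align chromosomes, shorten microtubules or build the central spindle for cytokinesis. Another group carries vesicles, organelles, proteins and RNA through the cell or along cilia. Male germ cells use both kinds: spermatocytes go on to the meiotic divisions, and spermatids remodel microtubules of the manchette and build the acrosome and the flagellum. By their textbook roles, 15 members were placed in the spindle group, 18 in the transport group and 9 in a group of cilium, signalling and other kinesins.

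A region in this account is a stretch where peaks of both wild-type libraries overlapped by at least 1 bp and no knockout peak was listed. A gene had a region when one overlapped its body or the 1 kb beyond either end. The fold enrichment of a peak is the ratio over background that the authors' peak caller gave, and the −log10 q is its significance after correction, also from the authors. The lists held 256 peaks in the knockout and 8236 and 10371 peaks in wild-type replicates 1 and 2, and 5325 regions were used. By this definition no region has a knockout peak, so its absence at a region is not a result. The lowest −log10 p, the significance before correction, was 4.47 in the knockout list and 2.71 and 2.54 in those of wild-type replicates 1 and 2. The knockout list thus held no peaks as weak as the weakest wild-type ones. Read depth is unknown from peak lists, so the lack of a listed peak does not show that a site was unbound. Genes are not replicates and the knockout is a single library, so counts are given beside the share over all protein-coding genes and no test was run.

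Of the 42 kinesin genes, 0 had a knockout peak and 15 had a wild-type region. A knockout peak was listed at 0.220% of all protein-coding genes, which leaves less than 1 such gene to be found among 42 at that share, so 0 of 42 is not a result about kinesins. A region was found at 35.7% of kinesin genes and at 23.9% of all protein-coding genes. Spindle kinesins had a region at 3 of 15 genes and transport kinesins at 8 of 18, and the other kinesins at 4 of 9. The spindle genes with a region were Kif2a, Kifc1 and Kifc5b, and those of the transport group were Kif17, Kif1c, Kifc3, Kif21b, Kif1b, Kif16b, Kif3a and Kif5b. In the third group they were Kif26a, Kif7, Kif19a and Kif24.

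The promoters below are those of the 6 members with the highest mean percentile of fold among members whose region covers the listed promoter. Covering a promoter means here overlapping it by at least 1 bp. The sequences run 5′ to 3′ along the gene, from 250 bases before the listed start to 50 bases from it onward. Capitals mark every match, on either strand, to one of 7 motifs: the CCAAT box, the cell cycle homology region or CHR (TTTGAA), the GC box (GGGCGG), the core of the NRF1 motif (GCGCNTGCG), the cyclic AMP response element or CRE (TGACGTCA), the MYB motif (AACNGTT) and the E-box (CACGTG). The Kif17 promoter is chr4:138262001-138262300 on the plus strand, and that of Kif1c is chr11:70700298-70700597 on the plus strand. On the minus strand are the promoters of Kif2a (chr13:107022306-107022605), Kif16b (chr2:142901415-142901714), Kif1b (chr4:149307684-149307983) and Kifc1 (chr17:33890584-33890883). All sequences and starts are those of RefSeq on GRCm38.p6.
Kif17: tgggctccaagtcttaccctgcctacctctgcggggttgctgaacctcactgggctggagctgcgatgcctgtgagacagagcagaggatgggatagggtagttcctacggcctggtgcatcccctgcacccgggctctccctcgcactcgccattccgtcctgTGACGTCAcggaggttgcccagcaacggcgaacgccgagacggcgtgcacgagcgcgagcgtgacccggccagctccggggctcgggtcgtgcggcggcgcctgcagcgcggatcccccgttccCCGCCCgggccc
Kif2a: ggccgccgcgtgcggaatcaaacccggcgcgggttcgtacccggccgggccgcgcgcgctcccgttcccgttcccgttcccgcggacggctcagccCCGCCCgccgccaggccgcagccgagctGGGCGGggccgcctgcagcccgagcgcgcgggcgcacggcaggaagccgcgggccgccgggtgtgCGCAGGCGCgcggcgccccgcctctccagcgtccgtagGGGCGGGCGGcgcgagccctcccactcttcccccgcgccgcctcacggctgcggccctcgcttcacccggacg
Kif1c: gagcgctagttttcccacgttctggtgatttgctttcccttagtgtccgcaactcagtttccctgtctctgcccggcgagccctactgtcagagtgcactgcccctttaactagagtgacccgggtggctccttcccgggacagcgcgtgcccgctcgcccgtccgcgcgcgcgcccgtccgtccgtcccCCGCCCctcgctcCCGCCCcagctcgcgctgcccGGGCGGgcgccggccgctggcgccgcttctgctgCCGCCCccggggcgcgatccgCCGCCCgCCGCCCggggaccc
Kif16b: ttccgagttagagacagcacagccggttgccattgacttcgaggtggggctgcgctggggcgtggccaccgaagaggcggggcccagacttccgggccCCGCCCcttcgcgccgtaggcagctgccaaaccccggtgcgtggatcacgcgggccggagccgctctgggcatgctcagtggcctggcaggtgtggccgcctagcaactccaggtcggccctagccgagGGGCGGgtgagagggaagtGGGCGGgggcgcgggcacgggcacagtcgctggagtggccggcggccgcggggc
Kif1b: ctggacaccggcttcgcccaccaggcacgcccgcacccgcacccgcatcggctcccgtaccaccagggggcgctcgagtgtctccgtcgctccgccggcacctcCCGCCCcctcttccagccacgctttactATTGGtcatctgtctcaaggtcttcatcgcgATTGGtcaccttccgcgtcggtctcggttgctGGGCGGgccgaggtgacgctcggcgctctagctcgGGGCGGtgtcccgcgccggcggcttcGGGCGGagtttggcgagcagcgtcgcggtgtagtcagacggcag
Kifc1: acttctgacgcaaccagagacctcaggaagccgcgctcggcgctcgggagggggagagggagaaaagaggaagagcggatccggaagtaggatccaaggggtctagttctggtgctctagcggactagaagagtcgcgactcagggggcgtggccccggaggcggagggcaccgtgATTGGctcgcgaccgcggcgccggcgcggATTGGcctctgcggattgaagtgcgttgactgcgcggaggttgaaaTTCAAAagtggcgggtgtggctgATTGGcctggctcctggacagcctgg

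The promoters of 2 further members are shown as comparisons and were chosen after their values were seen. Kifc5b (chr17:26916841-26917140, plus strand) is the copy of Kifc1, and Kif11 (chr19:37376132-37376431, plus strand) is a spindle kinesin with no listed peak.
Kifc5b: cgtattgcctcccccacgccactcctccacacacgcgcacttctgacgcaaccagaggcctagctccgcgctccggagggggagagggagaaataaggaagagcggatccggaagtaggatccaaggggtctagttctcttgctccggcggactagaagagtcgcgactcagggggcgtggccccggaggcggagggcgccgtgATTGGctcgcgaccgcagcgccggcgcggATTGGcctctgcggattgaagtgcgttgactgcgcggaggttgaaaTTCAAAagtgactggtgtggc
Kif11: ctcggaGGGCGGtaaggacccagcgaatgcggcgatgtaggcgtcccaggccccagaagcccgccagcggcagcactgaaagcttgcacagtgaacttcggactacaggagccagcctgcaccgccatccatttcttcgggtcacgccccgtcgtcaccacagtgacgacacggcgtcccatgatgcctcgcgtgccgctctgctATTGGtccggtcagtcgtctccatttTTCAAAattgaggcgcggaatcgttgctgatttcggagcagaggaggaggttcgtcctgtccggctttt

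Among spindle kinesins, Kif2a had the strongest binding. Kif2a encodes a kinesin that takes tubulin off microtubule ends and acts both at spindle poles and in neurons. No knockout peak was listed there, and the wild-type peaks had fold enrichments of 9.64 and 10.05 in replicates 1 and 2, with −log10 q of 17.8 and 20.36. These folds were at the 91.2 and 91.4 percentiles of all peaks in their lists. The region (chr13:107020875-107022887) was 2013 bp wide, the widest at a kinesin gene, and its summits lay 100 and 37 bp before the nearest listed start. In the Kif2a promoter above, 4 GC boxes and 1 NRF1 core are marked and the CCAAT and CHR letters are not found. The window of a non-coding gene, 3830408C21Rik, also reaches this region.

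Kifc1 encodes a minus-end-directed motor that focuses spindle poles, and Kifc5b is a closely similar gene on the same chromosome. At Kifc1 the fold enrichments were 5.86 and 4.70 in wild-type replicates 1 and 2 (chr17:33890033-33890631), and no knockout peak was listed. At Kifc5b the folds were 3.93 and 4.55 (chr17:26916998-26917510), and no knockout peak was listed either. At a region this absence follows from the definition. Both genes had their summits just inside the start, at 111 and 298 bp for Kifc1 and at 108 and 150 bp for Kifc5b. The Kifc1 region ends at 33890631, short of the listed start at 33890633, so the CCAAT boxes marked before that start lie outside it. The promoters of these genes matched at 239 of 272 bases (87.9%) when the Kifc5b sequence was read 28 bases further along, which sets the paired CCAAT boxes and the CHR of one over those of the other. How the authors placed reads that fit more than 1 site is not given in the sources used here, so binding at one copy cannot be told apart from binding at the other. Replicate 2 had a further peak beyond the far end of Kifc5b, with a fold of 3.71.

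The remaining 12 spindle kinesins had no region. A peak was listed in 1 wild-type library only at 4 of them, and none of these had a knockout peak. Kif22, a chromosome-arm motor, had a fold of 4.70 in replicate 2 beyond its far end, and Kif15, which helps hold spindle poles apart, had 2.91 in replicate 2 near its start. Kif14 and Kif23, both of which act in cytokinesis, each had a fold of 3.57 in replicate 1. No peak of any library was listed at Kif11, the motor that slides spindle poles apart, at Kif4, a chromosome-bound motor of the central spindle, or at Kif18a, which aligns chromosomes. The same held for Kif18b, Kif20a, Kif20b, Kif2b and Kif2c, so 8 of 15 spindle kinesins were without a listed peak.

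**Figure D1:**
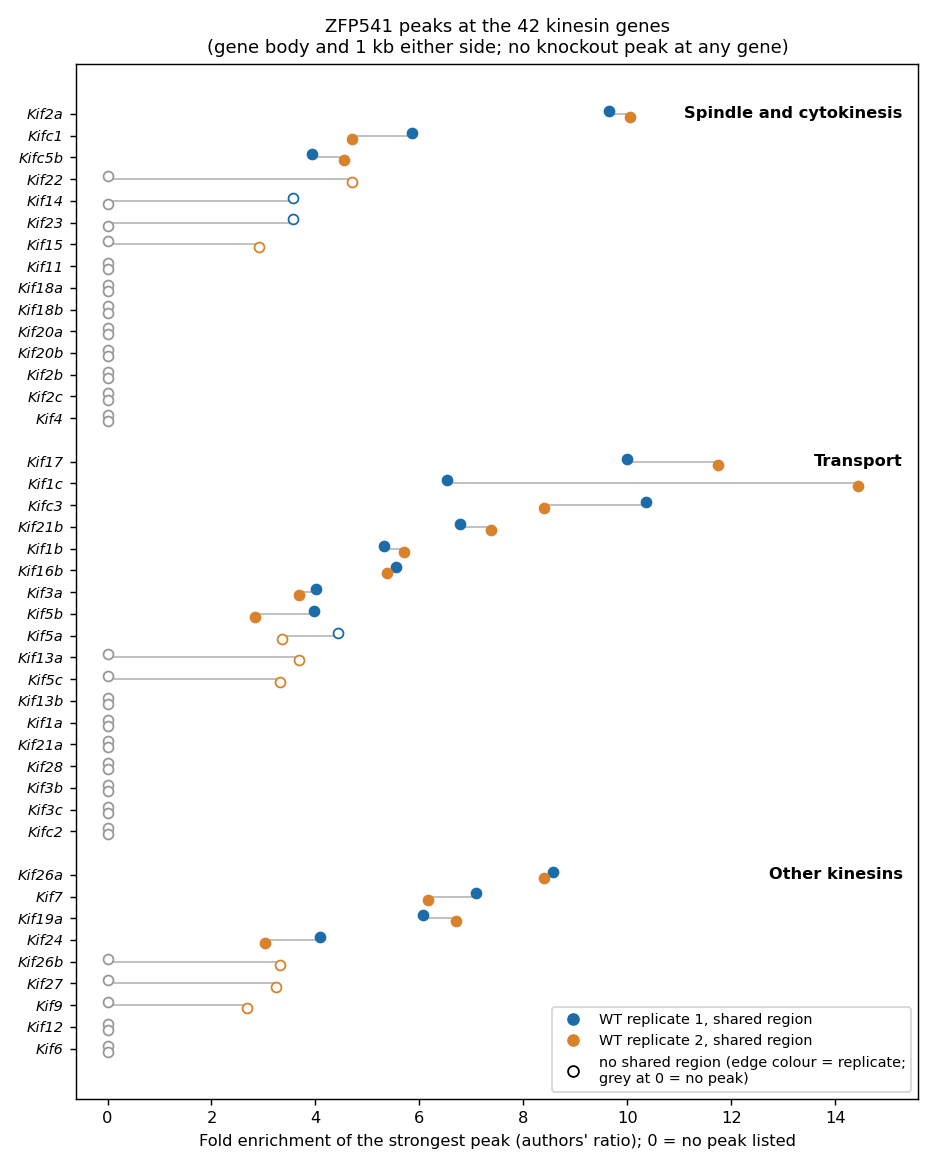
Fold enrichment of the strongest listed peak (horizontal axis, the authors' ratio) at each of the 42 kinesin genes in wild-type replicate 1 (blue) and replicate 2 (orange), with 0 where no peak was listed; filled points are genes with a shared region. Kif17, Kif1c, Kifc3 and Kif2a reach folds of 10.05 to 14.43 in at least 1 library, and 8 spindle and 7 transport genes have both points at 0; at Kif24 the replicate 2 point, 3.02, is a peak outside the region.

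Among transport kinesins, Kif17 had the highest mean percentile of fold of all members. Kif17 moves receptor vesicles in dendrites, and a form of it in male germ cells handles a coactivator of the transcription factor CREM. The Kif17 region had fold enrichments of 10.0 and 11.75 in wild-type replicates 1 and 2 and −log10 q of 18.95 and 26.25 (chr4:138261801-138263048). No knockout peak was listed at the gene, which at a region the definition requires. The summits lay 274 and 166 bp inside the start. The promoter above holds 1 CRE, the element that CREM is known to bind, at 86 to 79 bases before the start. The end window of Sh2d5, another protein-coding gene, reaches the same region, so the region cannot be assigned to one of the genes. A smaller peak about 1 kb further upstream, with a fold of 4.29, was listed in replicate 1 only.

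Kif1c, a motor of vesicle and RNA transport, had the widest gap in fold between the wild-type libraries among members with a region. Its region had fold enrichments of 6.54 and 14.43 in replicates 1 and 2 (chr11:70699997-70701827), at the 77.4 and 97.9 percentiles of their lists. No knockout peak was listed at the gene. By percentile the gap was wider at Kif24 (46.5 and 4.8), Kif5b (44.8 and 11.8) and one region of Kif19a (35.9 and 79.6). The summits at Kif1c were close to each other, 115 and 105 bp before the start, and 6 GC boxes are marked in the promoter. The end window of Inca1 also reaches this region. Kif1b, which carries mitochondria and synaptic vesicle precursors, had no knockout peak and folds of 5.31 and 5.71 (chr4:149306814-149308077), with summits 70 and 17 bp before the nearest listed start. Kif1a, the third of these related motors, had no listed peak.

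The other transport kinesins with a region covered several kinds of cargo. Kifc3, a minus-end-directed motor of cell junctions and the Golgi, had no knockout peak and folds of 10.36 and 8.39 in wild-type replicates 1 and 2 (chr8:95141984-95143366). This region lay inside the gene and away from both ends. Kif21b, which also restrains microtubule growth, had no knockout peak and folds of 6.78 and 7.38 at its lower-coordinate end (chr1:136131304-136132151). Kif16b, a motor of early endosomes, had no knockout peak and folds of 5.55 and 5.37, with summits 104 and 113 bp inside the start (chr2:142901092-142901632). These genes were within 2 units of fold between the wild-type libraries.

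The subunits of heterotrimeric kinesin-2 and the heavy chains of kinesin-1 had weak peaks or none. Kif3a, a subunit of the motor that builds cilia and flagella, had no knockout peak and folds of 4.01 and 3.69 in wild-type replicates 1 and 2 (chr11:53567417-53567877). Its partners Kif3b and Kif3c had no listed peak. Kif5b, the widely expressed heavy chain of conventional kinesin, had no knockout peak and folds of 3.98 and 2.83, and its replicate 2 peak had a −log10 q of 1.03, which is a q-value above 0.05.

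Kif5a and Kif5c, the heavy chains best known from neurons, had peaks but no region. Kif5a had a fold of 4.43 in replicate 1 and of 3.36 in replicate 2 at places that did not overlap, and Kif5c had 3.32 in replicate 2 only. Kif13a, a transport motor of endosomes, had 3.69 in replicate 2 only. Neither these genes nor Kif13b, Kif21a, Kif28 and Kifc2, where no peak of any library was listed, had a knockout peak.

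In the third group, Kif26a had the strongest region. Kif26a encodes an atypical kinesin without motor activity that takes part in growth factor signalling of enteric neurons. The Kif26a region had folds of 8.57 and 8.39 in wild-type replicates 1 and 2 (chr12:112143330-112144354), and no knockout peak was listed at the gene. The summits lay 2161 and 2113 bp before the listed start, but within 1 kb of the lower-coordinate end of the gene. Kif7, which regulates Hedgehog signalling at the tip of the cilium, had no knockout peak and folds of 7.09 and 6.17 at a region inside the gene, with summits 5452 and 5365 bp after the listed start (chr7:79709503-79711225).

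Kif19a, a motor that limits the length of motile cilia, was the only member with more than 1 region. No knockout peak was listed at the gene. One lay inside the gene, with folds of 6.07 and 5.03 in wild-type replicates 1 and 2 (chr11:114786254-114787148), and one at its higher-coordinate end, with 3.70 and 6.71 (chr11:114790971-114792759), where the end window of Btbd17 also reaches it. The 3.70 is from a replicate 1 peak of the joined region that lies beyond the 1 kb flank of Kif19a, and the replicate 1 peak within the flank had 3.51. Kif24, which acts at centrioles, had no knockout peak and region folds of 4.09 and 2.65, and its region (chr4:41464787-41465680) is also reached by the window of Nudt2. The replicate 2 peak of this region had a −log10 q of 0.65, which is a q-value above 0.05. Kif26b, Kif27 and Kif9 had a peak in replicate 2 only, with folds of 3.32, 3.25 and 2.69. Kif6 and Kif12 had no listed peak.

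The strongest region peaks of genes with a region had a higher median fold than any peak at genes without a region, though the ranges overlapped. In the genes without a region, 3 peaks of replicate 1 had folds of 3.57 to 4.43 and 8 peaks of replicate 2 had folds of 2.69 to 4.70, of which 2, at Kif15 and Kif9, had a q-value above 0.05. In the genes with a region, the strongest peak in a region had a median fold of 6.07 in replicate 1 and 6.17 in replicate 2, against medians of 5.71 and 6.38 over all 5213 protein-coding genes with one. Only the strongest region peak of each such gene enters, and peaks outside a region at these genes were not counted. Region folds in replicate 2 were as low as 2.65 at Kif24, 2.83 at Kif5b and 3.69 at Kif3a. The highest folds at kinesin genes were 10.36 and 14.43, against 24.5 and 26.26 over all genes. A replicate 1 peak, shared or not, was listed at 18 of 42 kinesin genes, against 27.8% of all protein-coding genes, and a replicate 2 peak at 23, against 32.6%.

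Most regions at kinesin genes lay at a gene end, which was also usual over all genes. A region lay at an end in 12 of the 15 kinesin genes with one, against 4573 of 5213 such protein-coding genes. Of the 16 regions, 9 were at the start-side end of a gene with a listed start and 4 were inside a gene beyond 1 kb from its ends. The other 3, at Kif21b, Kif5b and Kif19a, were at an end of a gene that has no entry in the promoter table. Among the 4 inside a gene, that of Kif3a had its summits only 259 and 138 bp after the listed start, which lies inside the annotated gene. Where a region covered a listed promoter, the summit was measured from the nearest listed start, with 1 value per gene. The median over the 9 kinesin genes was 104 bp after the start in replicate 1 and 113 bp after it in replicate 2, against 83 and 90 bp after it over all 3570 such protein-coding genes. In both libraries the summit lay after the start at 5 of the 9 kinesin genes and before it at the other 4. Counted over promoters, so that Kif2a and Kif1b enter with more than 1 start, the medians over 11 kinesin promoters were 70 and 17 bp before the start.

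**Figure D2:**
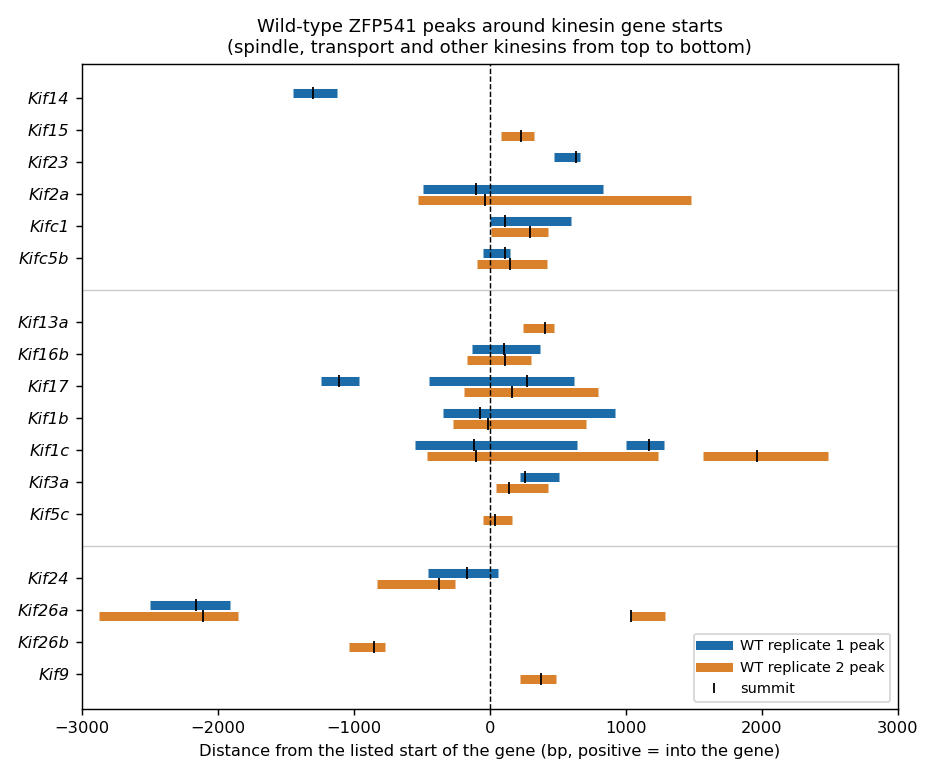
Wild-type peaks within 3000 bp of the listed start of kinesin genes, with distance from the start on the horizontal axis (bp, positive into the gene); bars are peaks of replicate 1 (blue) and replicate 2 (orange), ticks are summits, and genes with more than 1 listed start are drawn around the one nearest a summit. Peaks of both libraries overlap across or just beside the start at Kif2a, Kifc1, Kifc5b, Kif16b, Kif17, Kif1b, Kif1c, Kif3a and Kif24, and the overlapping peaks of Kif26a lie more than 1 kb before it.

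Kinesin genes are long, and longer genes had a region more often in the whole annotation. The median length was 46.0 kb for kinesin genes and 17.2 kb for all protein-coding genes. Among all protein-coding genes a region was found at 13.5% of short, 22.3% of middle and 35.9% of long genes, when the genes were split by length into 3 classes of equal number, the long class beginning at 31.3 kb. Of kinesin genes, 0 of 3 short, 4 of 9 middle and 11 of 30 long ones had a region. The 11 of 30 long kinesin genes are 36.7%, close to the share of all long genes. Among these long genes, 1 of 7 spindle kinesins and 8 of 17 transport kinesins had a region. In the middle class 2 of 6 spindle kinesins (33.3%) had one, and no transport kinesin falls in that class. In the short class it was 0 of 2 spindle and 0 of 1 transport kinesins. Spindle genes had a median length of 29.5 kb and transport genes of 48.4 kb, so length moves with the group, and its part in the counts was not tested beyond this split.

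Counts at gene ends alone were lower for transport kinesins and equal for spindle kinesins. A region lay within 1 kb of an end at 12 of 42 kinesin genes (28.6%), against 21.0% of all protein-coding genes. These were 3 of 15 spindle and 6 of 18 transport kinesins, since Kifc3 and Kif3a have their regions inside the gene. Over all protein-coding genes the share by length was 13.0%, 20.1% and 29.8%, and kinesins had 0 of 3, 3 of 9 and 9 of 30.

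The peak threshold set which members kept a region. With peaks of −log10 q of at least 5, 10 of 42 kinesin genes had one, against 13.7% of all protein-coding genes, and these were 1 of 15 spindle and 6 of 18 transport kinesins. At a minimum of 10 it was 7 of 42, against 7.89%, with 1 of 15 spindle and 4 of 18 transport kinesins. The 7 were Kif2a of the spindle group, Kif17, Kif1c, Kif21b and Kifc3 of the transport group, and Kif26a and Kif7. These 7 also kept a region in each of the other 9 settings of threshold, overlap, flank and library. Where regions that reach another protein-coding gene's end were left out, Kif17 and Kif1c lost theirs, as did Kif19a and Kif24 at gene ends. Kifc1, Kifc5b, Kif3a and Kif5b had none at either stricter threshold, nor did Kif24, and Kif5b and Kif24 had none once peaks with a q-value above 0.05 were left out, while Kif16b, Kif1b and Kif19a lost theirs at 10.

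**Figure D3:**
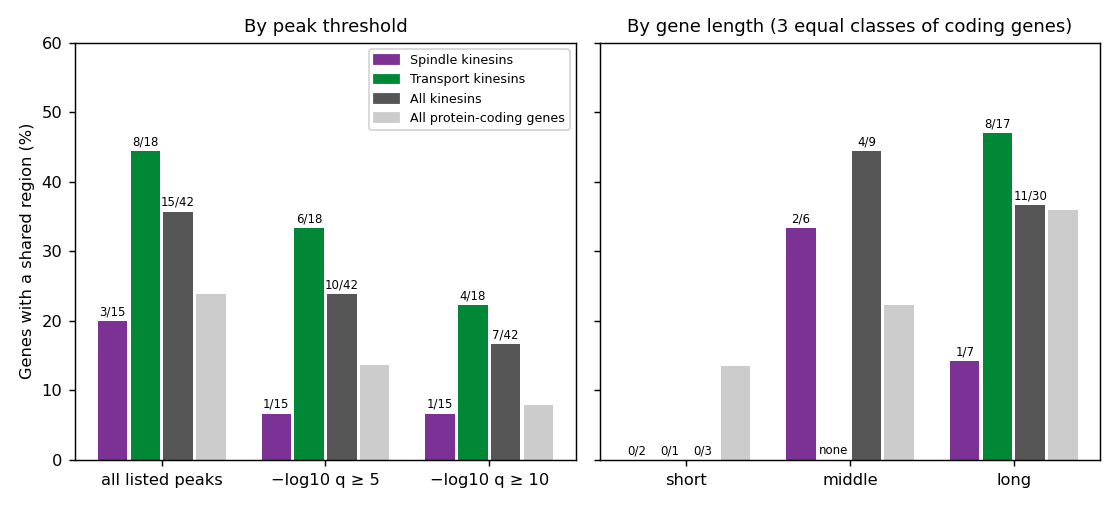
Share of genes with a shared wild-type region in the body or 1 kb flanks (percent), for spindle, transport and all kinesins and for all protein-coding genes, by peak threshold (left) and by class of gene length (right, 3 classes of equal number over all protein-coding genes), with the number of genes above each kinesin bar. Transport kinesins stand at 8 of 18 and spindle kinesins at 3 of 15 with all listed peaks, and among long genes all kinesins (11 of 30) are near the 35.9% of all long genes.

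Promoters covered by a region were rich in CpG dinucleotides, in kinesins and elsewhere. The promoter table holds 37 promoters of 33 kinesin genes; Kif28, Kif13b, Kif19a, Kif5b, Kif5a, Kif21b, Kif20a, Kifc2 and Kifc3 have no entry in it. A region covered at least 1 bp of the listed promoter of 9 of these 33 genes, against 20.4% of all protein-coding genes with an entry. These were 3 of 14 spindle, 5 of 11 transport and 1 of 8 other kinesins. The 11 kinesin promoters with a region had a median of 31 CpG in 300 bases (18 to 57), and the 26 without one had a median of 24 (1 to 62). The lowest, 18, is at Kif3a, whose region reaches only the last bases of the promoter. Over all coding promoters the medians were 30 with a region and 8 without one.

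Spindle kinesin promoters had a median of 26 CpG and transport kinesin promoters a median of 30. Over all genes with an entry, a region covered the promoter in 0.493% of the class with the fewest CpG (up to 6), 13.7% of the middle class and 49.0% of the class with the most, which has 23 or more. Kinesins had 0 of 4, 1 of 7 and 8 of 22 in these classes. In the class with the most CpG, 3 of 10 spindle and 4 of 8 transport kinesins had a region. Kif2a, with 57 CpG, had the most among kinesin promoters with a region, and Kif13a, with 62, had none in both libraries. The spindle genes Kif11, Kif4, Kif18a, Kif18b and Kif20b had 26 to 28 CpG and no listed peak. The same held for the transport genes Kif21a with 30 CpG, Kif3b with 26 and Kif1a with 24 at the richer of its promoters.

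**Figure D4:**
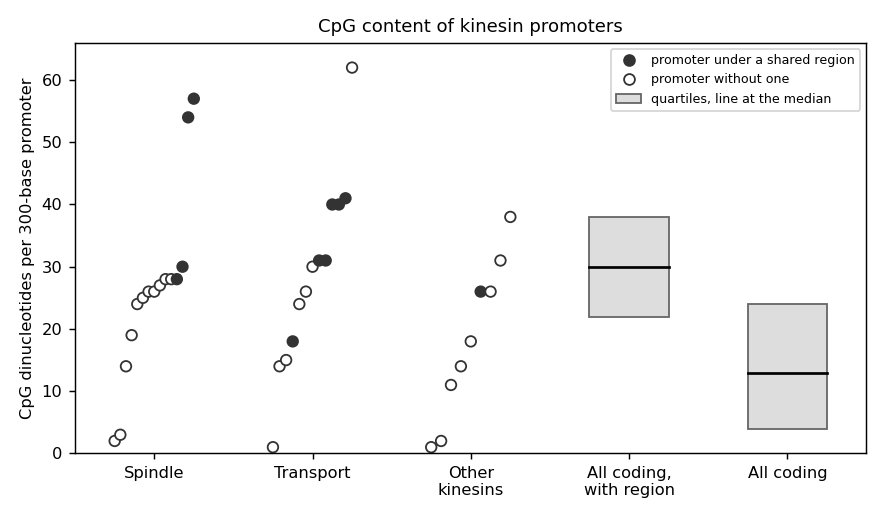
CpG dinucleotides per 300-base promoter (vertical axis) for each listed promoter of spindle, transport and other kinesins, filled where a shared region overlaps it by at least 1 bp, and the quartiles over all coding promoters with a region and over all coding promoters. Points are ordered by CpG within a group. Filled points lie between 18 and 57, and promoters without a region reach 28 in the spindle group and 62 in the transport group.

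The letters of the CHR motif were common in spindle kinesin promoters. The CHR is known from promoters of genes that are active in the G2 and M phases, where the DREAM and B-MYB complexes bind it. The TTTGAA letters were found on either strand in promoters of 11 of 14 spindle kinesin genes, 1 of 11 transport kinesin genes and 2 of 8 other kinesin genes, against 18.5% of all protein-coding genes with a listed promoter. Of the 11 spindle genes with these letters, 2 had a region over the promoter, Kifc1 and Kifc5b, against 8.95% of all protein-coding genes with these letters. These 2 are the similar copies whose binding cannot be told apart, so they may not be separate cases. Neither had a region at a −log10 q of at least 5. Kif11 is an example without a peak, with the CHR 19 to 14 bases before the start and a CCAAT box 45 to 41 bases before it, in the sequence above. The CHR letters were found in 7.32% of all coding promoters with a region and in 18.1% of those without one. The median share of G and C bases was 68.0% in the former and 54.0% in the latter, and its part in this difference was not tested.

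GC boxes were found in 9 of 11 kinesin promoters with a region (81.8%) and in 14 of 26 without one (53.8%), against 78.5% of all coding promoters with a region and 38.4% of those without one. The CCAAT letters were found in 6 of 11 and 11 of 26 kinesin promoters, against 34.2% and 39.1% over all coding promoters with and without a region. The NRF1 core was found in 2 of 11 and 2 of 26, against 19.0% and 6.11%. The CRE was found in 1 of 11 and 2 of 26, against 3.49% and 1.93%. MYB letters were found in 0 of 11 and 1 of 26, against 2.09% and 4.52%, and E-box letters in 0 of 11 and 1 of 26, against 12.8% and 6.65%. A match is a description of the letters in these windows and not a binding site, and it can lie outside the region that covers the promoter. The Kif3a region begins at chr11:53567417 and its promoter window ends at 53567418, so the Kif3a matches, among them its NRF1 cores, lie outside the region. Overlapping matches were counted separately, as at the paired GC boxes of Kif2a.

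Genes of proteins that work with kinesins were counted in the same way, by a region in the body or 1 kb flanks. None of them had a knockout peak, but one was listed at only 0.220% of all protein-coding genes, so this is not a result about these genes. The partner lists here and below were chosen with earlier results of these data known, so their counts describe the lists and are not a test. Of 17 adaptors and regulators of transport kinesins, 11 had a region (64.7%), against 23.9% of all protein-coding genes. The median length of the 17 was 39.5 kb, and among all protein-coding genes of the long class the share was 35.9%. They were led by Kifbp, which binds and holds back kinesin motor domains, with folds of 10.55 and 11.08 in wild-type replicates 1 and 2 (chr10:62577902-62578529). Trak1, which links kinesin to mitochondria, had 8.33 and 7.83, and Mapk8ip1, a scaffold that binds kinesin light chains, had 8.21 and 6.04. Arl8a, Clstn1, Fez1, Klc4, Mapk8ip2, Mapk8ip3, Spag9 and Trak2 were the others, and the end windows of Ptk7 and Stradb also reach the regions of Klc4 and Trak2. This count depended on the threshold, with 5 of 17 where −log10 q reached 5, against 13.7% of all protein-coding genes, and 2 of 17 where it reached 10, against 7.89%.

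Dynein is the motor that moves the opposite way to most kinesins. Of 28 genes of dynein, dynactin and their adaptors, 6 had a region (21.4%), against 23.9% of all protein-coding genes. The median length of the 28 was 29.4 kb. Among those with a region, the light chain gene Dynll2 led with folds of 10.49 and 10.33 in wild-type replicates 1 and 2. Next were the cargo adaptor gene Hook3 with 8.28 and 15.11, whose region the window of Rnf170 also reaches, and Pafah1b1, which encodes the dynein regulator LIS1, with 7.5 and 7.72. Of 24 spindle partners, of median length 31.0 kb, 4 had a region (16.7%), against the same 23.9%. These were Clasp2, a stabilizer of microtubule plus ends, with 7.5 and 8.06, Ckap5, a microtubule polymerase, with 8.57 and 5.43, and Prc1, which bundles microtubules of the central spindle, with 4.64 and 4.36, besides Numa1. Within 1 kb of a gene end, a region lay at 9 of 17 adaptors, 4 of 28 dynein genes and 3 of 24 spindle partners, against 21.0% of all protein-coding genes. The regions of Prc1 and Numa1 are also reached by the end windows of Rccd1 and Lrrc51. Cenpe, the centromere kinesin whose symbol is outside the rule, had no region.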

How the data were processed

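Peak lists of 3 ChIP libraries were used (1 knockout, 2 wild-type replicates). Per the submitters' processing notes, the build was mm10 and the tools were MACS2 2.2.6, Bowtie2 2.3.5, cutadapt 2.6, deepTools 3.5.0, Picard and SAMtools 1.10. Their settings, and the control and threshold behind each list, are not given in the sources used. The deposited lists, 1 per library, give a fold enrichment (ratio), −log10 p, −log10 q and a score that is the −log10 q times 10 without decimals. The deposited lists include peaks with a q-value above 0.05, 11.3% of the knockout's and 19.2% and 22.6% of those of wild-type replicates 1 and 2. Depth is unknown.

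Overlapping wild-type peaks were joined, and 132 of 5457 joined regions with a knockout peak were removed. Genes came from RefSeq (GRCm38.p6); 108 coding entries before 3 Mb of a chromosome were left out as scaffold coordinates. The members, the kinesin groups and partner lists were chosen with earlier results of these data known. Members with a region, a peak in 1 list or no peak are all named, with up to 3 genes of each partner list by mean percentile of fold; Numa1, Cenpe, the other adaptors and the Kif11 and Kifc5b promoters were added after values were seen. The overlap steps were tested on simulated data. Python 3.11.15, numpy 2.4.6, pandas 2.3.3 and matplotlib 3.10.9 were used.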

Additional observations from a re-analysis of the deposited data

How the results depend on the processing

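Counts of genes with a region were recomputed with other thresholds, overlap rules, flanks and group memberships. At a −log10 q of at least 5, a region at a gene end was left at 7 of 42 kinesin genes (11.8% of all protein-coding genes) and 1 of 15 spindle kinesins. Body counts at this threshold were 1 of 15 spindle kinesins, 5 of 17 kinesin adaptors, 3 of 28 dynein genes and 2 of 24 spindle partners. At a −log10 q of at least 10, gene ends counted 5 of 42 kinesins (6.78% of all protein-coding genes), 1 of 15 spindle and 3 of 18 transport kinesins. Body counts were then 7 of 42 kinesins, 1 of 15 spindle and 4 of 18 transport kinesins, 2 of 17 adaptors, 3 of 28 dynein genes and 1 of 24 spindle partners. Under a reciprocal overlap of at least 50%, 7 of 17 adaptors had a region (17.5% of all protein-coding genes) and Kif24 and Kifc5b had none. With 1 wild-type library left out, a peak of the other sufficed, so the share of all protein-coding genes was 27.8% to 32.6% for bodies and 23.7% to 27.8% for ends. Body counts were then 18 to 23 for kinesins, 5 in both cases for spindle and 9 to 11 for transport kinesins, 12 in both cases for adaptors, 10 to 11 for dynein genes and 7 to 8 for spindle partners, and end counts 15 to 18, 5 in both cases and 7 to 8 for all, spindle and transport kinesins. The other counts were within 1.5 times the reported ones, with flanks of 500 bp or 2 kb, with regions that have a knockout peak kept, and with Kif2a or Kif3a, Kif3b, Kif3c and Kif17 in neither group. Alternatives chosen after seeing the data were a −log10 p of at least 4.47, leaving out Kifc5b, and leaving out regions that reach another coding gene's end. The 4.47 is the lowest among knockout peaks. It left 13 of 42 kinesins, 3 of 15 spindle and 7 of 18 transport kinesins with a region, and 21.0% of all protein-coding genes. Without regions that reach another coding gene's end, gene ends counted 8 of 42 kinesins, 3 of 15 spindle and 4 of 18 transport kinesins. The share of all protein-coding genes under that rule was not computed, so these last counts have no matching share to be read against. At a −log10 p of at least 4.47, Kif5b and Kif24 had no region. No paired analysis was possible because no test between groups was run and the knockout is 1 library. Unknown depth limits every statement on a gene without a peak.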

Other observations

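Of the kinesin-named entries that are not protein-coding, the pseudogenes Kif22-ps, Kifc5c-ps and Kif4-ps and the long non-coding RNA gene Kif16bos had 0 peaks in the knockout list and 0 in both wild-type lists within their bodies and 1 kb flanks.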
